A study of Caenorhabditis elegans with 3 samples.

Results

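The genes described are the nuclear-encoded genes of the mitochondrial respiratory chain and ATP synthase of Caenorhabditis elegans, read for DPL-1 binding at their 5' ends. They are the protein-coding genes on nuclear chromosomes whose WBcel235 symbol begins with nuo-, nduf, ndua, ndub, nduv, ndus, sdh, ucr-, cyc-, isp-, cox-, atp-, asb- or asg-. There were 67 of them among 19973 nuclear protein-coding genes. By symbol they divide into 30 genes of complex I, 4 of complex II, 7 of complex III, 2 cytochrome c genes, 15 of complex IV and 9 of complex V. Of the 15 cox- genes, 7 encode subunits and 8 carry the names of assembly factors, so the list is wider than the subunits alone.

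DPL-1 is the worm DP protein, which pairs with an E2F protein to bind DNA. Chromatin immunoprecipitation and sequencing (ChIP-seq) was done with an anti-GFP antibody on young adult hermaphrodites of strain YL507, taken whole. All animals came from 1 transgenic line with a stable insertion in which a GFP-FLAG tag sits at the C-terminus of DPL-1, their age in hours is not known, and no source used here names the promoter that drives the fusion. The samples form 1 group of 3 biological replicates, numbered as in the labels, and no untagged or input sample was analysed here. Whole animals mix germline and somatic nuclei, so a peak cannot be placed in a tissue.

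The respiratory chain passes electrons from NADH through complex I, or from succinate through complex II, to ubiquinone. Complex III moves them on to cytochrome c and complex IV hands them to oxygen. Complexes I, III and IV pump protons across the inner mitochondrial membrane, and complex V, the ATP synthase, uses the returning protons to make ATP. A few subunits are encoded in mitochondrial DNA and the rest, described here, in the nucleus. In C. elegans mutants of several of these genes, isp-1 among them, live long and develop slowly.

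Peaks were taken from the authors' list on build ce11, filtered by the irreproducible discovery rate (IDR), a procedure based on how alike peaks rank in replicates. The list holds 3295 peaks, and all 3295 are the strongest peaks of the relaxed list that the authors made from the pooled reads. A single peak in it need not rank alike in the replicates, as the ranks below show. A gene had a peak when a summit, the position of highest signal, lay within 500 bp of the start of its gene record. Signal is the authors' value of peak strength. Its scale differs between lists, so replicates are compared by rank, 1 being the strongest peak of a list of 28383 (replicate 1) or 30000 (replicates 2 and 3). Coordinates are ce11 and 1-based. Read depth per replicate is unknown.

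The DNA under a few of the peaks is shown first, because the peaks differ in the words they hold. Each line gives the 101 bases centred on a summit, 5' to 3' on the strand of the named gene, from the RefSeq WBcel235 genome. Capitals mark the E2F-like words TTCCCGC or TTCGCGC or TTGCCGC or TTGGCGC, the cell cycle homology region (CHR) words TTTGAA and TTCGAA, and the words CTGCGTC and GGGCGG, on either strand. The windows, all from chromosomes II, III, IV or X, are those of the strongest peak of each complex there that overlap no annotated exon, the strongest such window on X, and ndus-8, which has an E2F-like word.
nduf-11 (complex I, chrII:11345762-11345862, minus strand): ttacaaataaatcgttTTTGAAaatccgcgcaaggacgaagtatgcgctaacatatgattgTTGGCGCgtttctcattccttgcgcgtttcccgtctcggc
ndus-8 (complex I, chrIII:7234304-7234404, minus strand): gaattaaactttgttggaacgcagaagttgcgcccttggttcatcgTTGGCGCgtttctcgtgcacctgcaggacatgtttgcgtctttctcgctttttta
sdhd-1 (complex II, chrII:11050045-11050145, minus strand): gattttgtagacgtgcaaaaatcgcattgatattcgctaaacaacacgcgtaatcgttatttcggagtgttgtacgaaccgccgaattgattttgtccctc
ucr-1 (complex III, chrIII:5591925-5592025, plus strand): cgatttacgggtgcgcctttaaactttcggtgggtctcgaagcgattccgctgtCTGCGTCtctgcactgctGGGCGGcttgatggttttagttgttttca
cyc-2.1 (cytochrome c, chrIV:4748523-4748623, minus strand): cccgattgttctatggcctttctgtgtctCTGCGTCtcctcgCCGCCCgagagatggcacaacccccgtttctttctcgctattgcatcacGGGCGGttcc
cox-5A (complex IV, chrIII:12905150-12905250, plus strand): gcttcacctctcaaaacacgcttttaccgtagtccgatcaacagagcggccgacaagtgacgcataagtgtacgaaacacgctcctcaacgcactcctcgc
atp-2 (complex V, chrIII:5228124-5228224, plus strand): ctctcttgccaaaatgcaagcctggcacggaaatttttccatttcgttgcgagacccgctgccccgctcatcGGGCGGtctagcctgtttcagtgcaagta
asb-2 (complex V, chrX:4469460-4469560, plus strand): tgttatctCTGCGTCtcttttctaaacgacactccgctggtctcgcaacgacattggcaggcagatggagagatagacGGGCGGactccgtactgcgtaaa

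An IDR peak lay at the 5' end of 39 of the 67 genes (58.2%), at 39 different summits, 23 of which other genes shared. The same rule called 11.7% of all nuclear protein-coding genes. The set was chosen by IDR peaks seen at 5' ends in an earlier reading of these data, so the count describes it and carries no test. In the replicates' own lists, each taken to its strongest 3295 peaks, 32, 40 and 32 of the 67 genes had a summit within 500 bp in replicates 1, 2 and 3, a mean of 51.7% ± 6.89 (SD, n = 3). Over all nuclear genes the shares were 9.89%, 11.6% and 10.3%, a mean of 10.6% ± 0.921 (SD, n = 3). A window of 1000 bp took in 44 of the 67 genes (14.6% of all genes), a window of 250 bp took in 22 (7.66%), and counting a peak only for the gene with the nearest 5' end left 26 (9% of all genes). Without replicate 2, counting only IDR peaks also in the strongest 3295 of replicates 1 and 3, the count was 24. These were the same 24 genes as when all 3 replicates were required. Counts given below as without a replicate are of this kind. The IDR list itself was unchanged and still rests on the reads of all 3.

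**Figure D1:**
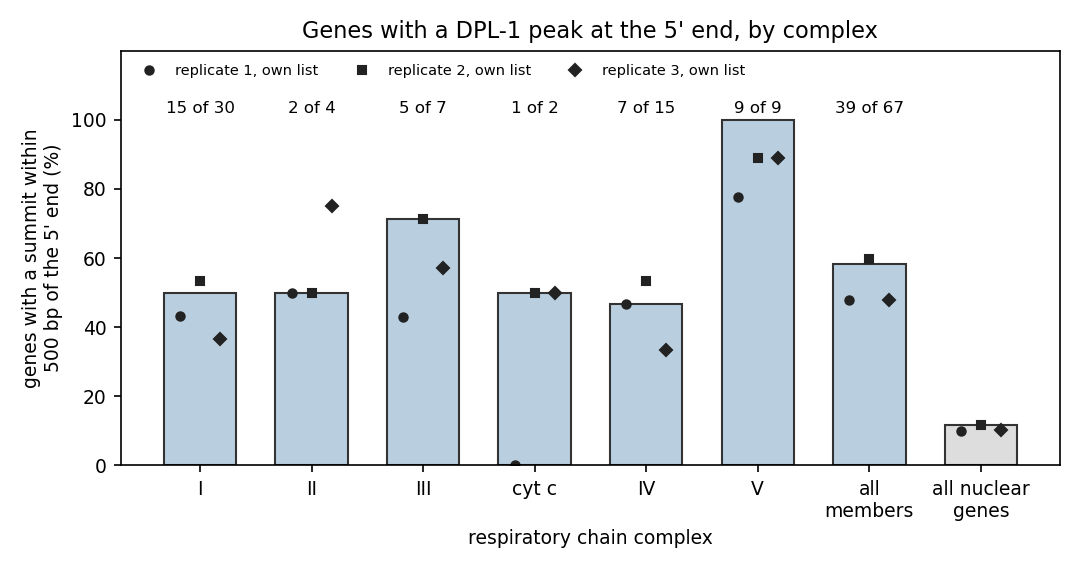
Percentage of genes with a summit within 500 bp of the 5' end (y axis) for each complex, all 67 genes and all nuclear protein-coding genes (x axis). Bars show the IDR list with counts above them, and symbols show the strongest 3295 peaks of each replicate's own list. All 9 complex V genes had an IDR peak, and 7 to 8 of them had a peak in the single replicates.

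The complexes are set side by side here, and no difference between them was tested. All 9 genes of complex V had an IDR peak, against 5 of 7 for complex III, 15 of 30 for complex I, 2 of 4 for complex II, 7 of 15 for complex IV and 1 of 2 cytochrome c genes. In the replicates' own lists complex V had 7, 8 and 8 genes, complex III 3, 5 and 4, complex I 13, 16 and 11, complex IV 7, 8 and 5, and complex II 2, 2 and 3. The complex V share was the highest of the 6 sets in each replicate, and the order of the other sets changed between replicates. Sets of 2 to 9 genes give coarse shares. Without replicate 2, complex V had 5 genes, complex I 9, complex III 3 and cytochrome c 0, and without replicate 3 complex III had 3 and cytochrome c 0.

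**Figure D2:**
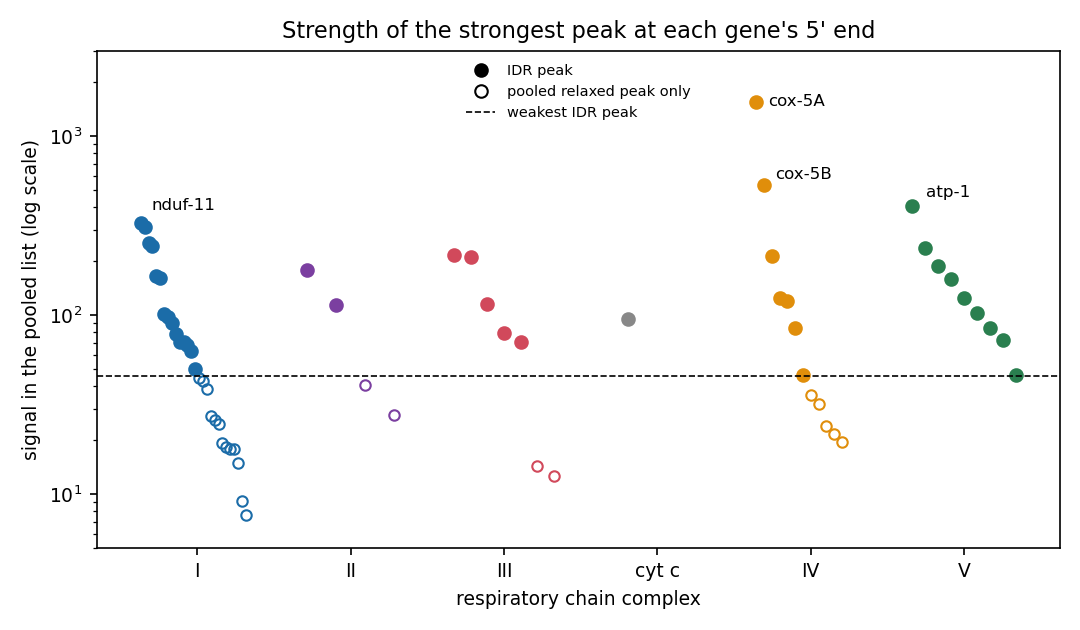
Signal in the pooled list (y axis, log scale) of the strongest peak within 500 bp of each gene's 5' end, by complex (x axis). Filled points are the 39 genes with an IDR peak, open points the 22 genes with a weaker pooled peak, and the dashed line is the weakest IDR peak, 45.7. cox-5A stands highest at 1561, and no complex V gene is open.

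Complex I takes electrons from NADH. Its strongest peak was at nduf-11 (WBGene00007192, II, 11343721 to 11345620, minus strand), an accessory subunit of the membrane arm. The peak (11345683 to 11345928) had signal 326, lay 192 bp upstream in sequence with no annotated gene, and ranked 174, 181 and 185 in replicates 1, 2 and 3. These 3 ranks lie close together, unlike those of most weaker peaks below. nduv-3 (IV, peak 2641039 to 2641293) followed with signal 310, 156 bp upstream, and ranks of 214, 177 and 190. That summit was nearer to a gene on the other strand, mdf-2, a spindle checkpoint gene, whose 5' end was 29 bp away. Next came ndua-8 (III, peak 2528708 to 2528920), signal 252, 253 bp upstream, with ranks of 556, 222 and 270. It too had nearer neighbours, rbc-2 at 121 bp and Y54F10AM.15 at 131 bp.

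Of the 7 core subunits of complex I, which carry its flavin and iron-sulfur clusters or the ubiquinone site, 3 had a peak. nuo-1, the NADH-binding flavoprotein, had signal 165 and ranks of 1227, 564 and 448. nuo-2 had signal 161 and ranks of 440, 1038 and 420, and ndus-8, an iron-sulfur subunit, had 102 and ranks of 1587, 1893 and 1533. The summit was nearest to the subunit gene itself in all 3. The other 4 core genes, nuo-5, nduv-2, nduf-2.2 and nduf-7, had none, and neither did gas-1, the paralogue of nduf-2.2, which falls outside the symbol rule. nduf-7 just missed, with signal 44.4 and pooled rank 3405, 7 bp from the 5' end, and ranks of 13051, 6278 and 1029.

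Among the 23 accessory subunits, 12 had a peak. After the top 3 and ndub-8 (signal 244), the signals were 98.0 at ndua-13, 89.8 at ndub-7, 78.5 at ndua-5, 70.9 at nduf-6, 70.4 at ndub-3, 68.1 at ndua-2, 63.2 at ndua-7 and 50.1 at ndua-1. Of these, the peaks of ndua-2 and ndua-1 rested on few replicates. The ndua-2 summit was found within 100 bp in replicate 1 alone, at rank 507, and that of ndua-1 was in the strongest 3295 of replicate 2 alone. Another, weaker IDR peak lay within 500 bp of the ndua-2 5' end. The strongest 3295 of replicate 2 also held a summit within 500 bp of that 5' end. The accessory genes without a peak were ndub-2, ndub-5, ndub-6, ndub-10, ndub-11, nduf-5, nduf-9, ndua-12, nuo-3, nuo-4 and nuo-6. Without replicate 2 complex I kept 9 of its 15 peaks.

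Complex II, succinate dehydrogenase, also serves the tricarboxylic acid (TCA) cycle. sdha-1, a flavoprotein subunit (X, 8542757 to 8546021, minus strand), had signal 178 at a peak from 8546135 to 8546317, 213 bp upstream in an exon of the noncoding RNA gene D2021.5. It ranked 865, 563 and 786 in replicates 1, 2 and 3. sdhd-1, a membrane anchor subunit (II, peak 11050019 to 11050160), had signal 114, 182 bp upstream, and ranks of 1236, 1087 and 1063. Its summit lay 160 bp from ilkp-1 on the other strand. The iron-sulfur subunit sdhb-1 had no IDR peak, and its strongest pooled summit was 113 bp away with signal 27.6 and rank 6108. sdha-2, the other flavoprotein gene, had none either. mev-1, the remaining membrane anchor, falls outside the symbol rule and had signal 294, above every complex II gene in it, with ranks of 202, 262 and 123.

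Complex III passes electrons to cytochrome c. ucr-2.2, a core protein gene on X (15173904 to 15178145, plus strand), had the strongest peak (15173585 to 15173789), with signal 218, 230 bp upstream, and ranks of 321, 517 and 290. cyc-1, which encodes cytochrome c1 (I, peak 8024622 to 8024825), had signal 211, 297 bp upstream, and ranks of 410, 453 and 375. Both peaks served only the named gene and were alike in the 3 replicates. ucr-1, the other core protein (III, peak 5591903 to 5592053), had signal 115, 160 bp upstream. Its ranks of 2613, 1710 and 384 were far apart. isp-1, the Rieske iron-sulfur protein, had 79.4 and no summit within 100 bp in replicate 1. Its peak lay nearer to islo-1, at 92 bp, than to isp-1, at 242 bp. ucr-2.1 had 71.1, and ucr-2.3 and ucr-11 had no IDR peak. Without replicate 2 or replicate 3, the complex III count was 3.

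Cytochrome c, the soluble carrier between complexes III and IV, has a pair of genes. cyc-2.1 (IV, 4747895 to 4749012, minus strand) had signal 95.1 at a peak from 4748421 to 4748724, inside its own intron, 439 bp downstream of the 5' end. It was the only one of the 39 summits on the downstream side, and it ranked 3916, 1121 and 1906. The neighbouring gene upstream on the same strand is rpl-20, whose own peak of signal 1238 lay 287 bp from its 5' end. cyc-2.2 (V) had no summit within 500 bp in any of the 3 replicates or the pooled list.

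Complex IV reduces oxygen to water. cox-5A (WBGene00012553, III, 12905491 to 12906619, plus strand) had the strongest peak of all 67 genes (12905037 to 12905379), signal 1561, at rank 8 of the IDR list. It ranked 17, 8 and 9 in the replicates, lay 291 bp upstream and served no other gene. cox-5B (I, peak 9788555 to 9788873) was next with signal 531 at rank 63, and ranks of 84, 60 and 86. Its summit was 16 bp upstream, much closer than that of cox-5A. These were the only 2 of the 39 peaks among the 100 strongest of the IDR list. The other subunits with a peak were cox-4 (signal 125), cox-6C (120) and cox-7C (46.4), while cox-6A and cox-6B had none.

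The cox- genes named for assembly factors were less well covered in count, 2 of 8 against 5 of 7 for the subunits, and the difference was not tested. Of the 8, cox-11, cox-15, cox-17, cox-18 and cox-19 followed another gene on the same strand within 500 bp, and none of the 7 subunit genes did. What this contributes to the counts was not tested. cox-14 (III, peak 10218667 to 10218858) had signal 214, 186 bp upstream, with ranks of 209, 493 and 876, and lay nearer to rde-4, an RNA interference gene, at 110 bp. cox-10, which makes the heme A precursor, had 85.1. cox-11, cox-15, cox-16, cox-17, cox-18 and cox-19 had no IDR peak. Among 11 further assembly factor genes outside the symbol rule, 3 had one, with sco-1, a copper chaperone of complex IV, at signal 275 and nuaf-1, a complex I factor, at 79.4.

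Complex V was the set in which every gene had a peak. atp-1, the alpha subunit (I, 12652277 to 12654655, plus strand), had signal 404 at 12652145 to 12652402, only 3 bp upstream, with ranks of 143, 107 and 98. atp-3, the stalk subunit OSCP (I, peak 5429824 to 5430042), had 237, 26 bp upstream, with ranks of 423, 237 and 829. atp-2, the catalytic beta subunit (III, peak 5228061 to 5228260), had 187, 243 bp upstream, with ranks of 798, 364 and 1787. The alpha and OSCP summits thus lay almost at the annotated start and the beta summit did not. Signals at the remaining genes were 159 at asb-2, 124 at asg-2, 103 at atp-5, 84.1 at atp-4, 72.7 at asg-1 and 46.1 at asb-1. The last, at rank 3249, was the weakest of the 39. Only 5 of the 9 peaks were in the strongest 3295 of all 3 replicates, those of atp-1, atp-2, atp-3, atp-5 and asb-2, and the same number remained without replicate 2. Of the genes outside the rule, mai-2, one of a pair coding for ATP synthase inhibitors, had signal 193 and mai-1 had 61.4, while hpo-18 had none.

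**Figure D3:**
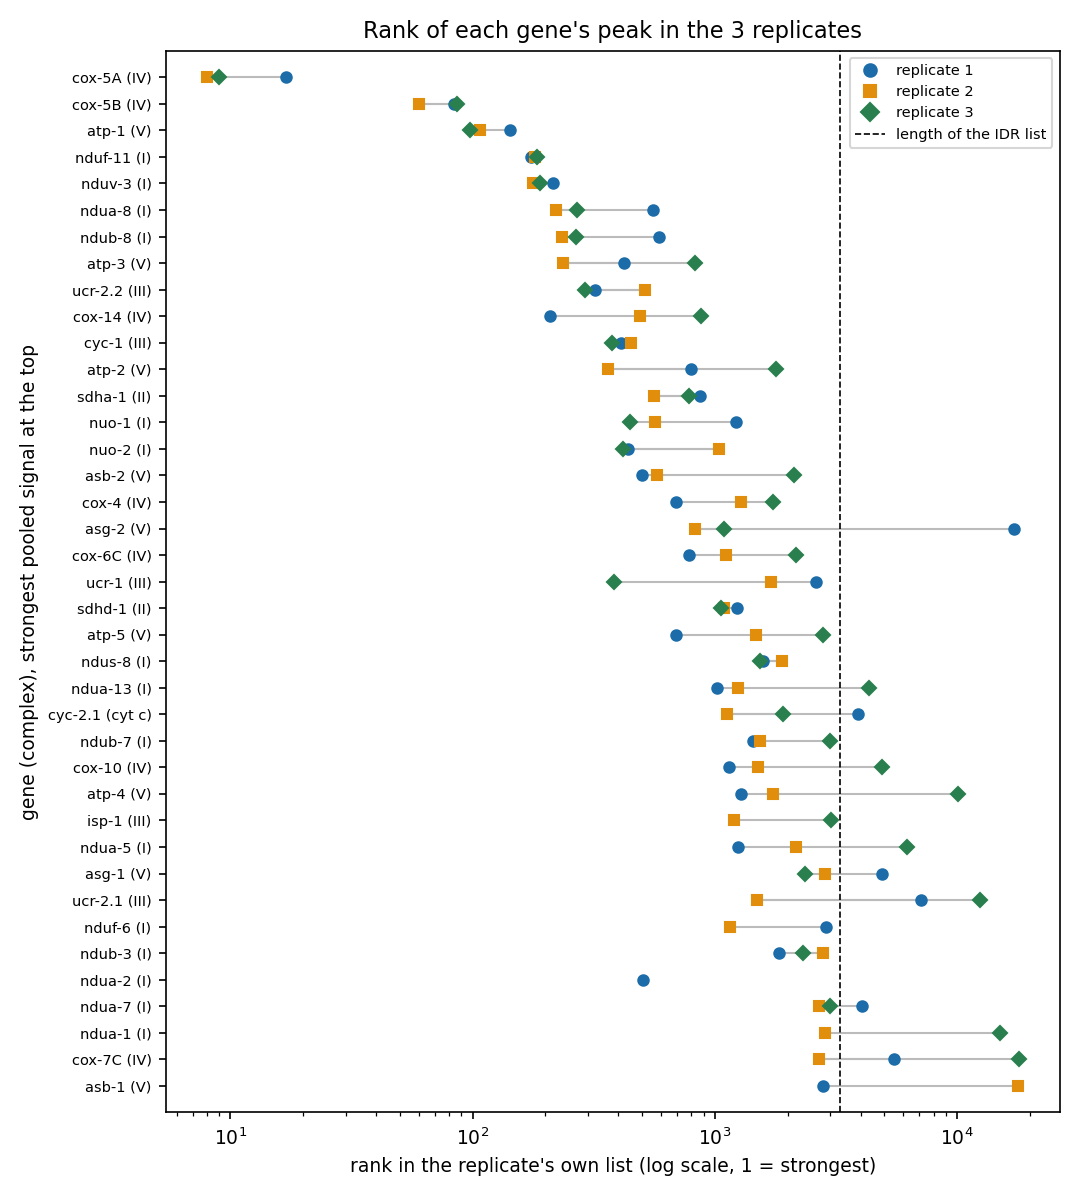
Rank of each gene's peak (x axis, log scale) in replicates 1, 2 and 3 for the 39 genes with an IDR peak (y axis, strongest at the top). The dashed line marks rank 3295. The 5 top genes keep ranks of 214 or better in every replicate, while replicate 1 places asg-2 at 17136 and replicate 2 places asb-1 at 17867.

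Agreement between the replicates varied from peak to peak. Of the 39 peaks, 24 were in the strongest 3295 of all 3 replicates (5.96% of all genes had such a peak). That percentage is 1191 of all 19973 genes, with or without a peak, so it is not the match for 24 of 39. Among the 2339 genes with an IDR peak, 1191 had one in the strongest 3295 of all 3 replicates. Of the remaining peaks of the 39, 10 were in the strongest 3295 of 2 replicates and 5 in that of 1. Replicate 2 held 37 of the 39 there, replicate 1 held 31 and replicate 3 held 29. A total of 34 had a summit within 100 bp in every replicate, and their worst rank was a median of 2.52 times their best. The median ratio was 2.52 for the 28 of these in the stronger 50% of the IDR list and 3.53 for the 6 in the weaker 50%. The peaks of nduf-6, ndua-2, ndua-1, isp-1 and asb-1, all in the weaker 50%, lacked a summit in at least 1 replicate. The ratio of 3.53 thus leaves them out. It was not computed over all IDR peaks. The 5 peaks in the strongest 3295 of 1 replicate only were those of ndua-2 and asb-1 (replicate 1) and ndua-1, ucr-2.1 and cox-7C (replicate 2).

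Several subunits have 1 copy on X and another on an autosome, and all 5 genes on X had an IDR peak: asb-2, asg-2, sdha-1, ucr-2.2 and ucr-2.1. Of the 62 autosomal genes, 34 had one. Over all genes, the rule called 6.04% of those on X and 12.6% of those on autosomes. The X copy had the higher pooled signal in each pair within the symbol rule where either had a peak. For the b subunit of ATP synthase it was 159 at asb-2 (X), against 46.1 at asb-1 (III), a copy known for its expression in the germline. The asb-2 peak (4469427 to 4469597) ranked 500, 580 and 2118, against 2798, 17867 and no summit for the asb-1 peak (4595957 to 4596260). For the g subunit it was 124 at asg-2 (X, 6840970 to 6841076), against 72.7 at asg-1 (I, 8692473 to 8692776). Replicate 1 went the other way, with rank 17136 at asg-2 and 4885 at asg-1.

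For the succinate dehydrogenase flavoprotein, sdha-1 (X) had 178, against a sub-threshold pooled signal of 40.6 at sdha-2 (I), whose ranks were 26475, 7508 and 1767. For core protein 2, ucr-2.2 (X) had 218 and ucr-2.1 (X, peak 12017945 to 12018248) had 71.1, against 14.3 at ucr-2.3 (III). In replicate 3 ucr-2.1 ranked 12429 within 100 bp of its IDR summit, and ucr-2.3 ranked 10206 within 500 bp of its 5' end. These searches differ in width, so the ranks do not order that pair. No source used here says how reads that match both copies were placed. Outside the rule the order was not the same, since mai-1 (X) had 61.4, against 193 at mai-2 (IV). Of the other X genes looked at outside the rule, idhb-1 and sucl-1 had a peak, and gas-1, idh-2 and suca-1 had none.

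Many of the peaks stood between 2 genes. Of the 39, 23 had another protein-coding 5' end within 500 bp, always on the other strand, and 16 served the respiratory gene alone. In 14 cases the neighbour was nearer to the summit than the respiratory gene. Over all genes with a peak, 46.4% shared it with another gene, and the gene was nearest in 76.6%. The neighbours included mrps-15, a mitochondrial ribosomal protein gene (3 bp from the asg-1 summit), kbp-5, a kinetochore gene (147 bp from that of ndua-13), and nars-1, an asparaginyl-tRNA synthetase gene (457 bp from that of nduf-6). A summit in such a gap cannot be given to 1 gene of the pair. None of the 39 summits lay within 250 bp of a tRNA gene, against 2.74% of all IDR peaks at 5' ends, a share at which a count of 0 is not informative.

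**Figure D4:**
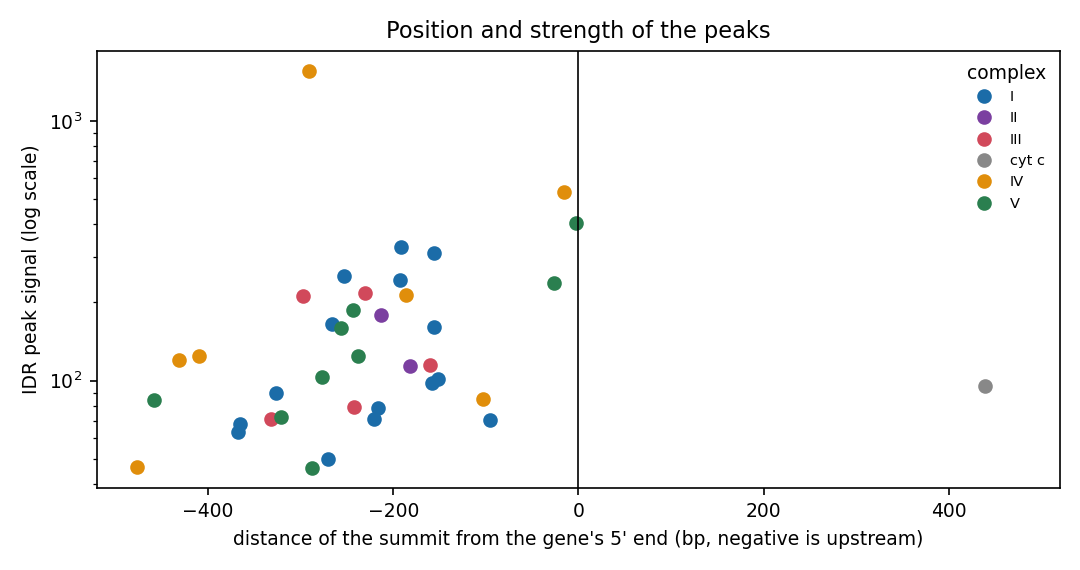
Position of each of the 39 summits relative to the gene's 5' end (x axis, bp, negative is upstream) and signal of the IDR peak (y axis, log scale), coloured by complex. All but the cyc-2.1 summit lie upstream, and 4 lie within 100 bp of the 5' end.

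The summits lay well upstream of the annotated starts. Their distance had a median of 242 bp and a range of 3 to 477 bp, and 38 of 39 were upstream. All genes with a peak had a median of 192 bp, with 90.8% upstream. Only atp-1, cox-5B, atp-3 and ndub-3 had a summit within 100 bp. Worm transcripts are often trans-spliced, and a gene record can then begin some way inside the primary transcript. The genes nearest to the limit of 500 bp on the inside were cox-7C at 477 bp and atp-4 at 458 bp, and on the outside nduf-9 at 639 bp and cox-6B at 693 bp. The median signal was 115, against 101.4 over all genes with a peak. Of the 39 peaks, 28 were in the stronger 50% of the IDR list. The median signal of all IDR peaks was 83.4, below both medians. Genes with a peak in general thus also lay mostly in the stronger 50%, and their exact share was not counted.

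A total of 28 genes had no IDR peak. Of these, 22 had a weaker summit in the pooled list (24.1% among all genes without an IDR peak), and 3 (cyc-2.2, cox-19 and cox-6B) had no summit within 500 bp in any list. The strongest below the threshold were nduf-7 (pooled signal 44.4), ndub-5 (42.6), sdha-2 (40.6), nduf-9 (38.5) and cox-6A (35.7), against 46.1 at asb-1 and 46.4 at cox-7C just above it. The cox-6B record spans 2699663 to 2786859 on III, and a second annotated transcript start of that gene did have an IDR peak within 500 bp.

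Some genes without a peak lay inside runs of genes. C. elegans genes are often transcribed together in operons, from a promoter before the first gene. Counting genes that follow another on the same strand within 500 bp, 21 of 67 (31.3%) were inside such a run, against 19.3% of all nuclear protein-coding genes. A peak was found at 9 of these 21, against 30 of the 46 others. The shares over all genes were 9.04% inside runs and 12.4% outside. Of the 12 inside a run with no peak of their own, 9 followed a first gene that had one. Over all such genes inside runs the share was 24.4%.

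Those first genes show what the 9 sit behind. cox-11 was in position 3 of a run headed by lin-54, a DREAM complex gene, whose peak had signal 720, and cox-18 followed Y55F3AR.2 (512). nuo-4 was in position 3 of the run of syf-2, a splicing factor gene (373), and ucr-11 followed dad-1 (248). cox-15 was in position 4 of the run of rpn-9, a proteasome subunit gene (192), ndua-12 followed ubxn-2 (161), and nuo-5 followed Y45G12B.2 (131). sdha-2 followed ndua-13, itself a complex I gene (98.0), and ndub-10 followed exos-3, an exosome gene (79.1). The remaining 3, ndub-2, cox-17 and cox-19, followed first genes without a peak. Closeness alone does not show that such genes share a transcript. Counting a peak at either place, 48 of the 67 genes had one, against 16% of all nuclear protein-coding genes.

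Words of the E2F type were present at a minority of these summits, as at the other IDR summits at 5' ends. An E2F-like word lay within 50 bp of 6 of the 39 summits (15.4%, exact 95% binomial interval 5.86 to 30.5), against 18.2% of 1752 other IDR summits at 5' ends. Windows of the same length centred 150 bp upstream of all 19973 genes held one in 3.57%. Within 100 bp the count was again 6 of 39 (15.4%), against 24.7% of the other IDR summits and 6.89% of promoter windows. The 6 were at nduf-11, nduv-3, nuo-2, ndus-8 and ndua-13 of complex I and sdha-1 of complex II, and none of the 22 summits of complexes III to V and cytochrome c had one. The same letters read backwards (CGCCCTT or CGCGCTT or CGCCGTT or CGCGGTT) were found at 5 of the 39 summits (12.8%), against 10.5% of the other IDR summits and 1.80% of promoter windows. The windows of nduf-11 and ndus-8, printed above, share a run of 15 bases, GTTGGCGCGTTTCTC, which was found at 7 of 1791 IDR summits at 5' ends (0.391%) and in 0.0200% of all promoter windows. The 7 include these 2 summits, from which the run was taken, so its counts are a description only.

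A CHR word, of the kind that LIN-54 of DREAM recognises, lay within 50 bp of 1 of the 39 summits (2.56%, exact 95% binomial interval 0.0649 to 13.5), that of nduf-11. The share was 32.0% at the other IDR summits and 34.1% in the promoter windows. Within 100 bp the count was 12 of 39 (30.8%), against 55.8% of the other IDR summits. The letters backwards, AAGTTT and AAGCTT, lay within 50 bp of 6 of the 39 summits (15.4%), against 9.19% of the other IDR summits and 19.7% of promoter windows. Mean GC content in the 101 bp windows was 47.9% ± 7.73 (SD, 39 summits), against 46.0% at the other IDR summits and 34.2% in the promoter windows. In windows of 100 bp on either side it was 39.7% at the 39 summits, against 40.5% at the other IDR summits. A short AT-rich word is less often found in DNA of higher GC content, and the part of GC content in these counts was not tested.

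The words CTGCGTC and GGGCGG were picked after reading the sequences printed above, so their counts are a description only. GGGCGG lay within 50 bp of 8 of the 39 summits (20.5%, exact 95% binomial interval 9.30 to 36.5), those of atp-1, atp-2, asb-2, ucr-1, isp-1, cyc-2.1, ndua-1 and ndua-2. It was at 5.65% of the other IDR summits and in 2.55% of promoter windows. CTGCGTC was at 4 of the 39, those of ndub-8, asb-2, ucr-1 and cyc-2.1 (10.3%), against 9.13% of the other IDR summits and 1.78% of promoter windows. The repeat GAGAGA was at 4 of 39 (10.3%), against 17.7% of the other IDR summits and 8.42% of promoter windows. The strongest peak, at cox-5A, held none of the words searched.

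Neighbouring mitochondrial pathways gave counts of both kinds. Of 20 genes of the TCA cycle and pyruvate dehydrogenase, 11 had an IDR peak, with dld-1, the dehydrogenase subunit shared by several complexes, strongest at signal 607 (ranks of 95, 41 and 58) and aco-2, the mitochondrial aconitase, next at 302 (261, 213 and 196). The aco-2 peak also served eef-1B.1. Of 4 ADP/ATP carrier genes, ant-1.1 had one, 39 bp upstream with signal 530 and ranks of 121, 51 and 84. None of 8 coenzyme Q synthesis genes had a peak, coq-1 to coq-6, clk-1 and coq-8. A count of 0 in 8 genes is not informative beside the 11.7% over all genes. The limit of 3 counts used for a count of 0 corresponds to 37.5% of 8 genes, and it covers counting only. Coenzyme Q is the ubiquinone that complexes I and II reduce.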

How the data were processed

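Whole-animal ChIP-seq of tagged DPL-1 in 3 biological replicates was analysed from 5 deposited peak lists on build ce11. The authors derived 1 relaxed list per replicate, 1 from pooled alignments and the IDR list from these, per the text deposited with each sample, which also names 1 further source file. The signal of each peak is the authors' deposited value. No source used here names the aligner or peak caller. Read depth is unknown.

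Summits (peak start plus offset) were matched to gene records of Ensembl release 115 (WBcel235) within 500 bp, and to replicate summits within 100 bp, in Python 3.11.15. For a gene without an IDR peak, the rank in a replicate is that of the strongest summit within 500 bp of its 5' end. The complex was read from the symbol. Words were searched on both strands in the RefSeq genome. The matching functions were tested on simulated data. Members, gene lists and settings were chosen with earlier results of these data known, so no test was run. Intervals cover counting only. The rule for named genes took the 3 strongest peaks of complexes I, III, IV and V, all of complex II, cytochrome c and paralogues. Not every value is printed for each of them. The ce10 lists were not used. Alternatives changed the window, the 5' end, the genes a peak serves, the peak list and the replicates.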

Additional observations from a re-analysis of the deposited data

How the results depend on the processing

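Against 39 genes with a peak, a 250 bp window gave 22, with 3 in complex III, 0 for cytochrome c, 3 in complex IV and 4 in complex V, a median distance of 173 bp and a median rank of 768 against 1013. Taking only the nearest gene of each peak gave 1 gene in complex II, 3 in complex III and 4 in complex IV, and a median rank of 771. IDR peaks in the strongest 3295 of all 3 replicates gave 24 genes, with 9, 3, 0 and 5 in complex I, complex III, cytochrome c and complex V, a median distance of 203 bp and a median rank of 499.5. The stronger 50% of the IDR list gave 9 for complex I and 3 for complex III, and the own list of replicate 1 gave 3 for complex III and 0 for cytochrome c. Leaving 1 replicate aside, and requiring a place in the strongest 3295 of the others, gave 24 to 29 genes. The IDR list was unchanged, so no replicate's reads were removed. Complex I had 9 to 12 genes, complex III 3 to 4, cytochrome c 0 to 1, complex IV 5 to 6 and complex V 5 to 7. Median distances were 203 to 238 bp and median ranks in the IDR list 499.5 to 617. These sets are stricter by construction. CHR words within 100 bp were at 30.8% of the summits. The other alternatives stayed within 1.5 times the count, or within the spread of the replicates. A peak was found under all 14 settings at 11 genes and under none at 21. The pooled list gave the same 39 genes by construction. The unknown depth limits what a missing peak means. No paired analysis was possible because there is only 1 group.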
